A study of Mus musculus with 34 samples.

Results

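The response of mouse Neuro-2A (N2A) neuroblastoma cells to 5-azacytidine was described from 1 treated RNA-seq library and 3 libraries of DMSO-treated cells, 4 of the 34 libraries of the series. The treated library carried the name of a compound library well, Lopac_1_G11, which the compound list of the study identifies as 5-azacytidine, and it was compared with DMSO replicates A, B and C for every type of splicing event and, as 1 value per condition, for gene expression. All 4 cultures were N2A cells exposed for 24 h at a final DMSO concentration of 0.4%, the treated one to 5 µM of the compound. The 34 libraries covered DMSO and 27 small molecules, which had been picked partly for the size of their effect on endogenous microexons, so that a microexon response was a condition of entry. Nothing in the labels says whether the DMSO replicates came from separate experiments, and with 1 treated library the spread between treated cultures was not measured.

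5-azacytidine is a cytidine analogue that is incorporated into RNA and, after reduction, into DNA, where it traps DNA methyltransferases, chiefly the maintenance enzyme DNMT1, so that cytosine methylation is lost as cells divide. Genes that are kept silent by promoter methylation, many of them normally used only in germ cells, are the classic genes that reappear under it. Microexons are very short exons that neurons include through the splicing activators SRRM4 and SRRM3, and they mostly add a few amino acids to proteins of the cytoskeleton, vesicles and synapses without breaking the reading frame. N2A cells come from a neural crest tumour of the sympathetic lineage and express both activators, so that many microexons are included at intermediate levels.

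The reads counted on exon-skipping events, where a read can serve several events, came to 55521020 in the treated library and to 75978448, 66602104 and 37427024 in DMSO A, B and C. The treated library was thus shallower than DMSO A and B and deeper than DMSO C. The N2A label held: 12 of 12 sympathetic and neuronal markers were above 5 RPKM in both conditions. Of 20 markers of glia, fibroblasts, blood, epithelium, endothelium and liver, none passed 5 RPKM, and their summed level was 5.14 RPKM in DMSO and 8.7 RPKM in treated cells. Most of that difference lay in Gfap, the astrocyte intermediate filament, at 0.29 RPKM in DMSO and 3.03 RPKM in treated cells, while Mog, Aqp4, Col3a1, Epcam and Hba-a1 were listed at 0 in both.

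Skipping of microexons was the most frequent splicing change relative to the number of events tested. Percent spliced in (PSI) is the share of a gene's transcripts that contain an exon, or for introns the share that retains it. An event was called when its PSI differed by at least 10 from the mean of the DMSO libraries and a posterior probability above 0.95, computed from the inclusion and exclusion reads, placed the treated PSI on that side. This probability covers read sampling in these libraries only and is not a test between conditions. Of 590 microexons (27 nt or shorter) with enough reads, 45 (7.63%) were decreased and 5 (0.847%) were increased. When each DMSO library was compared in the same way with the other two, 0.524% to 1.4% of microexons were decreased and 0.698% to 1.22% increased. The compound had been chosen for an effect on microexons, so these counts describe its extent. All 45 decreased microexons lay below every DMSO library that could be read, and 32 of them lay at least 10 PSI below the nearest one. The rule largely brings this about. Of 557 decreased cassette exons, 552 also lay below every DMSO library, and 328 at least 10 PSI below the nearest one.

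Longer exons, introns and alternative splice sites gave smaller shares. Among 56956 cassette exons, 557 (0.978%) were decreased and 214 (0.376%) increased, against 0.313% to 0.578% and 0.275% to 0.364% between DMSO libraries. Retention was increased for 420 of 86164 introns (0.487%) and decreased for 124 (0.144%), and the DMSO libraries gave 0.115% to 0.262% and 0.0915% to 0.154%. Alternative 3′ splice sites were called in 260 (0.851%) and 252 (0.825%) of 30539 site measurements, and alternative 5′ sites in 254 (1.13%) and 254 (1.13%) of 22416. Between DMSO libraries these shares were 0.492% to 0.692% and 0.489% to 0.702% for 3′ sites, and 0.666% to 0.78% and 0.648% to 0.789% for 5′ sites. Directions are balanced there by construction, because the sites of one exon share 100% between them. Over all detected events the mean difference was -1.81 PSI for microexons, -0.18 for cassette exons and 0.14 for introns.

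**Figure D1:**
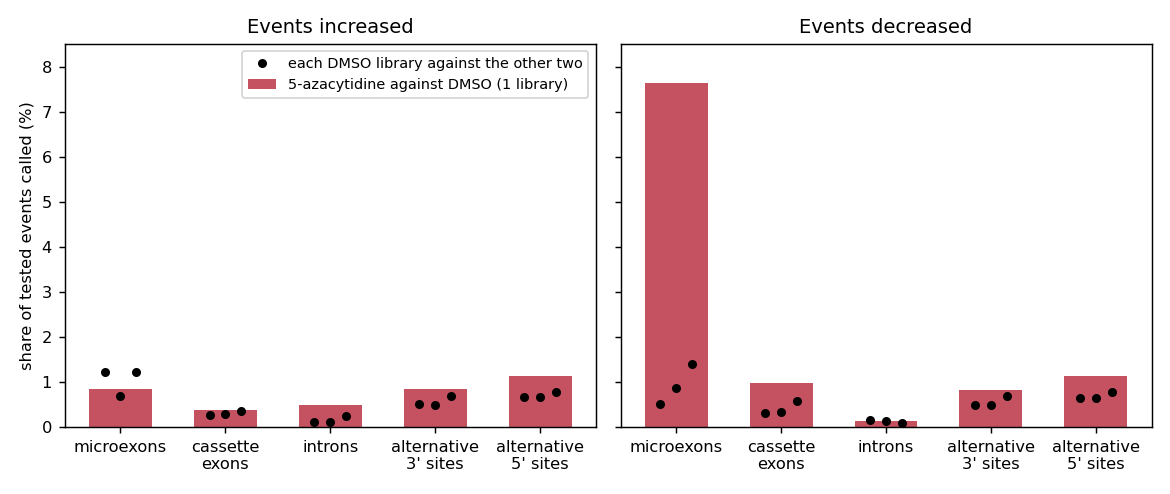
Share of tested events (y axis, %) called increased (left) or decreased (right) for each event type (x axis). Bars are 5-azacytidine against DMSO and the 3 points are each DMSO library against the other two. The bar for decreased microexons (7.63%) stands far above its points (at most 1.4%), while the bar for increased microexons (0.847%) lies among its points.

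Decreased microexons are shown with the exonic bases that flank them, since their length and the codons they add are what their skipping removes. They are those with the widest gap to the DMSO libraries that could be matched, and those of Mast2 and Ergic3, which the study assayed by RT-PCR. Each microexon was matched to a GENCODE exon by its length and the lengths of the introns beside it, which succeeded for 14 of the 17 microexons named here. Those of Cdon and Ckap5, also among the widest gaps, and of Eml6 were not matched. Each of those shown is annotated as coding over its whole length in the matched transcript. Capitals mark the microexon and lower case the 15 bases of the neighbouring exons on each side, 5′ to 3′ on the transcribed strand:
Dtnb: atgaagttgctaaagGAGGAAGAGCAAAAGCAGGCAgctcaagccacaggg
Vav2: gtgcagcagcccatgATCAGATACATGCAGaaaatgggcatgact
Sidt2: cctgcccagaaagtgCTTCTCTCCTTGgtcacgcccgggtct
Synj1: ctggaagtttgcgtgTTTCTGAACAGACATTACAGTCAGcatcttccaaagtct
Shank2: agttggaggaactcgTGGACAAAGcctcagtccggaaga
Erc1: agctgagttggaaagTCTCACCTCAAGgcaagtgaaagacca
Mast2: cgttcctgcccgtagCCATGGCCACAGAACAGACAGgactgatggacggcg
Ergic3: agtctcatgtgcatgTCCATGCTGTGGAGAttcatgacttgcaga
In GRCm38 the microexon of Dtnb is at chr12:3754096-3754116 on the plus strand, that of Vav2 at chr2:27300430-27300444 on the minus strand, that of Sidt2 at chr9:45947541-45947552 (minus), that of Synj1 at chr16:90971564-90971587 (minus), that of Shank2 at chr7:144396638-144396646 (plus) and that of Erc1 at chr6:119734081-119734092 (minus). The Mast2 microexon is at chr4:116333413-116333433 (minus) and the Ergic3 microexon at chr2:156015377-156015391 (plus).

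The 21-nt microexon of Dtnb, which encodes the dystrophin-associated protein beta-dystrobrevin, had a PSI of 84.3, 76.6 and 67.3 in DMSO A, B and C and 43.0 in treated cells, the lowest of the 34 libraries (lowest other 53.7). Cdon, a cell-surface co-receptor for hedgehog proteins, included a 14-nt microexon at 62.0, 60.8 and 79.8 in DMSO and at 36.4 after treatment. Ckap5 encodes a microtubule polymerase, and its 24-nt microexon moved from 44.0, 45.3 and 44.9 to 20.9, which was read from 612 informative reads in the treated library. In these 3 exons the treated value lay 23.1 to 24.4 PSI under the nearest DMSO library.

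Vav2, a guanine nucleotide exchange factor, included its 15-nt microexon at 80.1, 85 and 93.3 in DMSO and at 58.4 in treated cells. For the 12-nt microexon of Sidt2, a lysosomal membrane protein, the values were 51.9, 45.5 and 52.2 against 24.0, again the lowest of 34 libraries (lowest other 26.4). Synj1, the phosphoinositide phosphatase synaptojanin 1 of synaptic vesicle recycling, had 64.8, 66.4 and 62.5 against 41.7 for a microexon of 24 nt. These exons were chosen by the gap between the treated value and the nearest DMSO library, so lying outside the DMSO range is not a separate result.

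The 9-nt microexon of Shank2, a scaffold of the postsynaptic density, was at 58.3, 64.1 and 37.6 in DMSO and at 18.3 after treatment. Only 28 reads informed the treated value and 31 to 51 the DMSO values, and 1 other compound gave the same PSI of 18.3. Erc1, a scaffold of the presynaptic active zone, had the narrowest DMSO spread of these 8 exons together with Ckap5 (SD 0.7 in both, n = 3), at 60.0, 59.5 and 58.7 against 43.0 in treated cells.

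**Figure D2:**
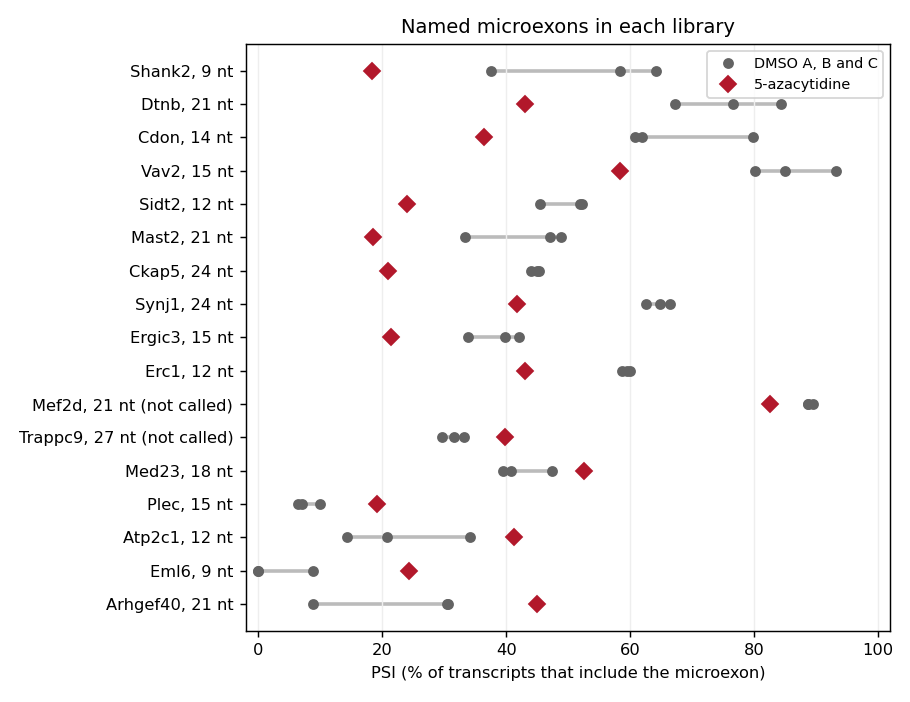
PSI (x axis, %) of the 17 named microexons (y axis, with length in nt) in DMSO A, B and C (grey points, joined by a line) and in the 5-azacytidine library (red diamonds). The treated value lies outside the DMSO range in all 17, and all but Mef2d, Mast2, Ergic3 and Trappc9 were chosen by their gap to it. It is lower in the 11 upper exons, among them Dtnb (43.0 against 67.3 to 84.3), and higher in the 6 lower ones, and the exons of Mef2d and Trappc9 did not reach a difference of 10.

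Among the exons that the study also assayed by RT-PCR, some moved and others did not. The screening reporter was built on the 21-nt microexon of Mef2d, a transcription factor of neuronal and muscle genes, and the endogenous exon had a PSI of 89.5, 88.7 and 88.7 in DMSO and 82.6 in treated cells, a difference of -6.4 that was not called. In Mast2, a microtubule-associated kinase, the 21-nt microexon was called decreased, at 47.0, 48.9 and 33.3 against 18.5. Ergic3, a protein of ER to Golgi transport, was also decreased, with 33.9, 39.8 and 42.0 in DMSO and 21.4 after treatment for 15 nt. In Asph, which encodes aspartate beta-hydroxylase, a 45-nt exon was decreased from 70.8, 56.5 and 57.5 to 41.1, while its 48-nt exon was at 25.8 and inside the DMSO range of 20.9 to 32.3. The 36-nt exon of Zdhhc20 (30.1 against 29 to 41.4) and the 45-nt exon of Mgrn1 (20.6 against 16.8 to 25.6) also lay inside. The 27-nt microexon of Trappc9 was on the other side of DMSO, at 39.8 against 29.7, 31.6 and 33.2, and was not called.

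Increased inclusion was called in 5 microexons. Eml6, a microtubule-associated protein, had a 9-nt microexon at 8.9, 0.0 and 0.0 in DMSO and 24.4 in treated cells, from 31 reads, the highest of the 32 libraries that could be read (next 14.9). The 21-nt microexon of Arhgef40, also a guanine nucleotide exchange factor, was at 45.0 against 30.7, 8.8 and 30.4. For Plec, the cytoskeletal linker plectin, the PSI of a 15-nt microexon was 19.2 against 9.9, 7.0 and 6.4. Atp2c1, a calcium pump of the Golgi, had 41.3 against 34.2, 20.7 and 14.4. The 18-nt microexon of Med23, a Mediator subunit, was at 52.6 against 39.5, 47.4 and 40.8, a difference of 10.0 that fell to 8.5 without DMSO replicate A and to 9.1 without replicate C and was then no longer called.

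Beside these 8 and those of Mast2 and Ergic3, the 35 remaining decreased microexons had differences from -25.7 (the 18-nt exon of Fryl, read in DMSO A and B only) to -10.0 (Mfsd6). A few are given here as examples chosen after their values were seen. In Ppfia2, a liprin of the presynaptic active zone, a 9-nt microexon was at 15, 21.5 and 15.9 in DMSO and had a PSI of 0.0 in treated cells, from 16 reads. Ank3, the ankyrin of the axon initial segment, went from 17.1, 16.8 and 18.3 to 4.2 for 12 nt. Ncam1, the neural cell adhesion molecule, had a 3-nt microexon at 64.8, 66.3 and 68.8 against 53.4. Eif4g1, a scaffold of translation initiation, had 47.3, 47.5 and 50.2 against 35.9 for 21 nt. Of the 45 decreased microexons, 40 (88.9%) had a length divisible by 3, as had 74.4% of all detected microexons. Both Fryl microexons were decreased, in a gene whose own level was also lower (12.02 and 5.2 RPKM in DMSO and treated cells), and Shank2 was at 3.16 and 1.57 RPKM. Among the other 7 of the 8 widest gaps, log2 ratios of the gene were -0.44 for Vav2, -0.41 for Erc1, -0.40 for Dtnb and -0.12 to 0.01 for Ckap5, Sidt2, Cdon and Synj1. The median ratio was -0.22 for genes of decreased microexons and -0.11 for those of all detected ones.

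The share of decreased exons was highest for the shortest ones. The comparison was restricted to exons with a mean DMSO PSI between 10 and 90, which can move in both directions and made up 26.3% of microexons but 4.83% of cassette exons. Within it, 41 of 155 microexons (26.5%) were decreased and 3 (1.94%) increased, whereas 253 of 2753 cassette exons (9.19%) were decreased and 196 (7.12%) increased. The DMSO libraries against each other gave 1.4% to 5.56% decreased microexons and 3.18% to 5.45% decreased cassette exons in that window. Increased exons made up 2.07% to 4.2% and 5.71% to 7.71% there, so that the increased shares under 5-azacytidine were not above this background. By length, 32.8% of 64 exons of 3 to 15 nt were decreased, 22% of 91 exons of 16 to 27 nt, 12.9% of 264 exons of 28 to 50 nt, and 8.69% to 8.98% of longer exons. The mean difference went from -7.25 PSI in the shortest class to -4.25, -1.48 and -0.61 in the next 3. Microexons of intermediate inclusion were called most often: 45.5% of those with a DMSO PSI of 50 to 70 were decreased, 31.2% of those at 30 to 50, 27.3% of those at 70 to 90 and 8.7% of those at 10 to 30. The limit of 10 PSI is a larger part of a low PSI, so the share at 10 to 30 was held down by the rule.

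**Figure D3:**
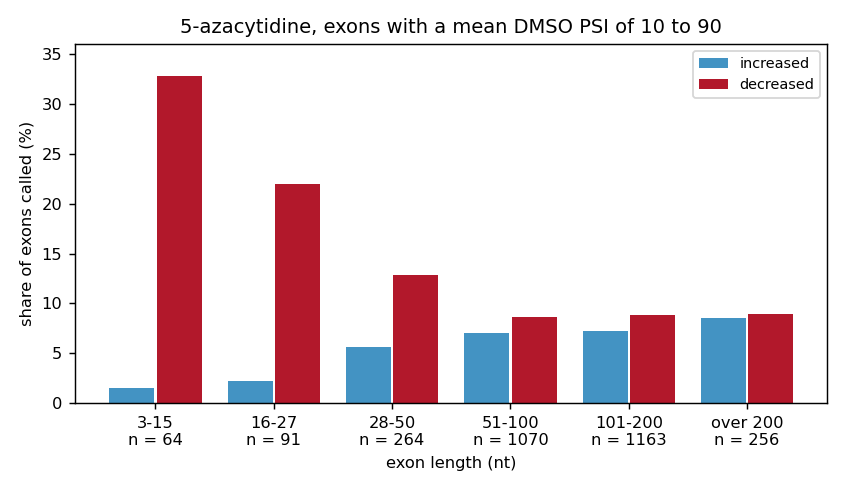
Share of exons (y axis, %) called increased (blue) or decreased (red) by 5-azacytidine in each class of exon length (x axis, nt, with the number of exons), for exons with a mean DMSO PSI of 10 to 90. The decreased share falls from 32.8% at 3 to 15 nt to between 8.69% and 8.98% above 50 nt, where increased and decreased shares are nearly equal.

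Among cassette exons, the largest single change was a gain. A 51-nt exon of Dazl, an RNA-binding protein of germ cells, was included at 25.7, 34.9 and 24.0 in DMSO and at 78.4 in treated cells, the highest of 28 libraries (next 72.2), although the Dazl gene itself was at 5.04 RPKM in DMSO and 3.5 RPKM in treated cells. Polg2, the accessory subunit of the mitochondrial DNA polymerase, included a 91-nt exon at 8.5, 3.6 and 6.9 against 45.3, and no other library was above 12.8. A 69-nt exon of Nav3, a neuron navigator protein, was at 49.5, 41.2 and 51.5 against 87.7, again above every other library (next 78.1). Increases were also called in Svop (39.2, 44.1 and 43.7 against 74.4), Mrvi1 (70.4 to 72.3 against 100), Klhl24 (54.3 to 67.2 against 91.7), Slc9a5 (24.5 to 31.2 against 54.7) and Kcnab1 (53.4 to 58.7 against 81.0).

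The decreased cassette exons with the widest gaps were mostly included in DMSO. In Arap3, a GTPase-activating protein, a 62-nt exon was at 97.3, 96.1 and 100 in DMSO and 55.2 in treated cells, and no other library was below 85.9. Sept3, a neuronal septin, had 100, 96.8 and 100 against 61.2 for 52 nt (lowest other 90.3). Gnat2, a cone transducin subunit, had 89.9, 94.6 and 96.3 against 60.6, and Sfi1, a centrosomal protein, 100 in all 3 DMSO libraries against 72.2 from 31 reads. BC053749 (80.6 to 90.4 against 45.3), Phc3, a Polycomb protein (92.4 to 96.0 against 66.3), Ift27, a protein of intraflagellar transport (79.9 to 81.2 against 54.2), and Pyroxd2 (77.8 to 85 against 52.4) completed the 8. All but Phc3 were at the lowest value of any library that could be read.

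Introns called in either direction were shorter than all detected introns and lay in shorter genes. The median length was 311.5 nt for introns with increased retention and 430.5 nt for those with decreased retention, against 1272 nt for all detected introns. The median genomic span of their genes was 16.7 kb and 17.1 kb, against 45.9 kb. The median DMSO retention was 7.4 and 23.7 for the called introns and 0.1 for all detected ones. A fall of 10 PSI needs an intron that is already retained in DMSO. Introns of matched DMSO retention were not compared, so these medians cannot be read as a trait of the response. The largest gap was in Sh2d5, an SH2-domain adaptor, where a 315-nt intron was retained at 10.2, 9.7 and 0.0 in DMSO and 71.4 in treated cells, from 18 reads. Rnf215, a RING finger protein, had 44.4, 26.5 and 25 against 86.4 for a 76-nt intron, and Aatk, a neuronal kinase, 24.0, 27.3 and 35.7 against 75. Fam129c (3.2 to 6.7 against 41.9) and Ankzf1 (6.4 to 27.3 against 61.5) followed, and in all 5 the treated library had the highest retention of any library that could be read. Retention was lower in 1700092M07Rik (73.0, 100 and 78.9 against 29.4), Lime1 (41.2 to 58.4 against 17.2), Lrrc45 (39.4 to 47.2 against 16), 2610020H08Rik (60.0 to 66.7 against 41.7) and Giyd2 (31.9 to 36.8 against 14.5). The 2610020H08Rik call rested on 17 reads and was lost without DMSO replicate B or C. DMSO C, the shallowest library, gave the upper end of the background for increased retention (0.262%). Without it 405 introns were increased, and without DMSO replicate A or B 289 and 287.

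At alternative splice sites, 273 of 14018 exons with a measured 3′ site (1.95%) and 266 of 10146 with a measured 5′ site (2.62%) held a call. The most distinctive was in Ehmt2, which encodes the histone H3 lysine 9 methyltransferase G9a. An acceptor that leaves the exon 71 nt shorter was used in 0.0% of transcripts in all 3 DMSO libraries, from 261, 269 and 122 reads, and in 32.4% in treated cells, from 271 reads, and all 33 other libraries were at 0.0. The exon lies at chr17:35049334-35049412 in mm9. Necap2, a clathrin adaptor partner, used an acceptor that adds 22 nt at 9.1, 26.2 and 17.1 in DMSO and 58.2 in treated cells. Kdm6a, a histone H3 lysine 27 demethylase, used the acceptor of its shorter form at 12.6, 3.9 and 5.4 against 41.3. Among 5′ sites, the donor of the shorter form of Zbtb41, a zinc-finger protein, was used at 48.8, 48.2 and 46.2 against 83.8. Prmt1, the main asymmetric arginine methyltransferase, used a donor that adds 36 nt at 11.1, 10.9 and 7.7 against 39.3, and Dab2ip, a Ras GTPase-activating protein, one that adds 133 nt at 4.1, 5.8 and 0.0 against 30.6. For all 6 the treated library was the highest of those that could be read.

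Alternative acceptors 3 nt apart (NAGNAG sites) made up 64 of 192 called exons with 2 measured acceptors (33.3%) and 12.3% of all detected ones. Among exons with an intermediate DMSO value, 49.0% were of this kind, and they were called in 10.1% of cases against 12.7% for all such exons.

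The transcripts of the splicing regulators differed less than 2-fold. Srrm4, the main microexon activator, was at 10.42 RPKM in DMSO and 7.2 RPKM in treated cells, the third lowest of 28 conditions, and Srrm3 was at 18.49 and 18.37. Of 38 listed neural splicing regulators 27 were above 5 RPKM, none passed 2-fold in either direction, and 19 of the 27 lay below zero with a median log2 ratio of -0.14. Rbfox1, a neuronal exon activator, was at 5.07 and 2.98 RPKM, and Celf4 at 11.48 and 7.18. Rbm38, which the study describes as a negative regulator of microexon splicing, was at 40.62 and 64.62, rank 5 from the highest of 28 conditions. Of 143 cassette exons in the listed regulators, 1 was increased and 2 decreased, where 0.376% and 0.978% of all cassette exons were. Counts this small cannot be told from those shares. A 54-nt exon of Mbnl1 was increased (55.2, 53.8 and 54.4 against 65.7, the highest of 34 libraries) and a 51-nt exon of Rbfox2 decreased (69.3, 70.4 and 78.2 against 60.3), as was an 80-nt exon of Celf5 (100 in DMSO A and B against 88.4, not read in DMSO C). At an alternative donor of Celf4, the use of the longer form by 60 nt was increased (29.9, 43.3 and 45.2 against 57.6). Of 48 SR and hnRNP genes and of 48 core spliceosome genes above 5 RPKM, none passed 2-fold, with medians of -0.01 and 0.05. Of 265 introns in the SR and hnRNP list, 2 were increased and none decreased, where 0.487% of all introns were increased. They were introns of the splicing kinases Clk1 (9.2, 6.9 and 1.8 against 18.6) and Clk2 (36, 25.6 and 25.5 against 57.6).

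Transcripts of the DNA methylation machinery, whose enzymes are the direct target of the compound, were present and close to their DMSO level. Dnmt1 was at 72.82 RPKM in DMSO and 58.66 RPKM in treated cells, and Uhrf1, which brings DNMT1 to replicated DNA, at 133.73 and 107.64. The de novo methyltransferase genes Dnmt3a (27.97 and 24.23) and Dnmt3b (3.81 and 3.72) differed little. Of 17 such genes above 5 RPKM none passed 2-fold, 9 lay below zero and the median log2 ratio was -0.07. Of 160 introns in the DNA methylation list, 1 was increased and none decreased, where 0.487% of all introns were increased. It was a 263-nt intron of Dnmt1, with a retention of 8.1, 9.5 and 0.8 in DMSO. In treated cells the retention was 20.5, from 53 reads, and the highest other library was at 24.1. DNA methylation itself and the protein level or activity of the enzymes were not measured in these files.

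Gene expression changed narrowly. Fold changes were taken as log2 ratios of RPKM + 0.5, which understates the change of genes near that value, and genes past a 2-fold ratio were counted if at least one condition exceeded 5 RPKM. There is 1 RPKM value per condition, merged over the DMSO replicates, so no spread and no test are available. Of 9631 genes, 78 (0.81%) were higher and 64 (0.665%) lower, and the median log2 ratio was -0.02. Only 31 of the 78 higher and 26 of the 64 lower genes were protein-coding. The others included 37 and 21 small RNA genes, which are poorly captured in polyA libraries, and 7 and 13 pseudogenes.

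The largest rise among named genes was in Tex19.1, a germ-line and placental gene that restrains retrotransposons. It stood at 0.20 RPKM in DMSO and 8.48 RPKM in treated cells, a log2 ratio of 3.68. Treated cells were the highest of 28 conditions, just above Vorinostat, a histone deacetylase inhibitor, at 8.46, while the median of the other 26 compounds was 0.35. Because the question of promoter methylation attaches to this gene, the 250 bases before its start are shown, from the RefSeq promoter table (GRCm38.p6, chr11:121145893-121146142, plus strand), with each CG in capitals:
Tex19.1 promoter: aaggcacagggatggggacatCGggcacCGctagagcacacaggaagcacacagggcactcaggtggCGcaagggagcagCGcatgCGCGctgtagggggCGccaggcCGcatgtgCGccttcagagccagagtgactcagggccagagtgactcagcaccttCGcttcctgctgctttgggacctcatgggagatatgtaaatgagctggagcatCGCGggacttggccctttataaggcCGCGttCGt
It holds 15 CG dinucleotides, counted on the strand shown, and the median over 32851 promoters of the same length was 6.0. As many or more were found in 27.3% of promoters.

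Other germline genes also appeared, at levels too low for the limit of 5 RPKM. Of 50 listed germline genes 49 were found and 10 passed 5 RPKM. Tex19.1 was the only one of the 10 past 2-fold, and 6 of them lay below zero, including Rhox2a at 86.45 and 71.22 RPKM. The other 39 lay at or below 5 RPKM in both conditions. Of these, 27 (69.2%) were higher in treated cells, 2 (5.13%) were lower and 10 were equal, and in 12 (30.8%) the treated value was the highest of the 28 conditions. Among all 12686 protein-coding genes at or below 5 RPKM, 28.1% were higher, 26.4% lower, and 1.63% were highest of 28. The list was counted here after the levels had been seen, and RPKM values this low rest on few reads.

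Piwil2, a Piwi protein of the piRNA pathway, was at 0.07 RPKM in DMSO and 1.61 RPKM in treated cells, and the highest other condition was 0.63. Slc25a31, the testis form of the ADP/ATP carrier, was listed at 0 in DMSO and at 1.3 after treatment, with no other condition above 0.05. The meiotic synapsis genes Sycp1 (0 and 0.57) and Sycp2 (0.04 and 0.37) and the meiotic cohesin Stag3 (0.02 and 0.51) showed the same order, as did Dpep3 (0 and 0.42) and Tuba3b (0 and 0.34). All 7 were at their highest level of the 28 conditions in treated cells. Ddx4 (0.01 and 0.14) and Sycp3 (0.09 and 0.14) were not.

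Rxra, a retinoid nuclear receptor, was at 3.52 RPKM in DMSO and 10.47 RPKM in treated cells, above every other condition (next 8.89). The replication-dependent histone gene Hist1h2ap was at 2.86 and 10.1, Procr, the endothelial protein C receptor, at 1.80 and 6.52, and Serpinf1, the secreted factor PEDF, at 12.64 and 30.03. Fxyd5 (2.94 and 8.64), Phlda1 (5.4 and 14.97), Agtrap (2.24 and 6.48), Mgarp (5.57 and 14.74), Apol9b (3.14 and 7.98), Apol9a (2.57 and 6.57) and Cml1 (2.50 and 6.28) completed the 12. Apol9a and Apol9b are near-identical neighbours, so the split of reads between them is uncertain. DMSO was low among the 28 conditions for several of these genes: against the median of the other 26 compounds Procr, Phlda1, Agtrap, Mgarp, Apol9b, Serpinf1 and Apol9a no longer passed 2-fold. Over all higher protein-coding genes, 15 of 31 were also past 2-fold from that median and 9 were the highest of 28.

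**Figure D4:**
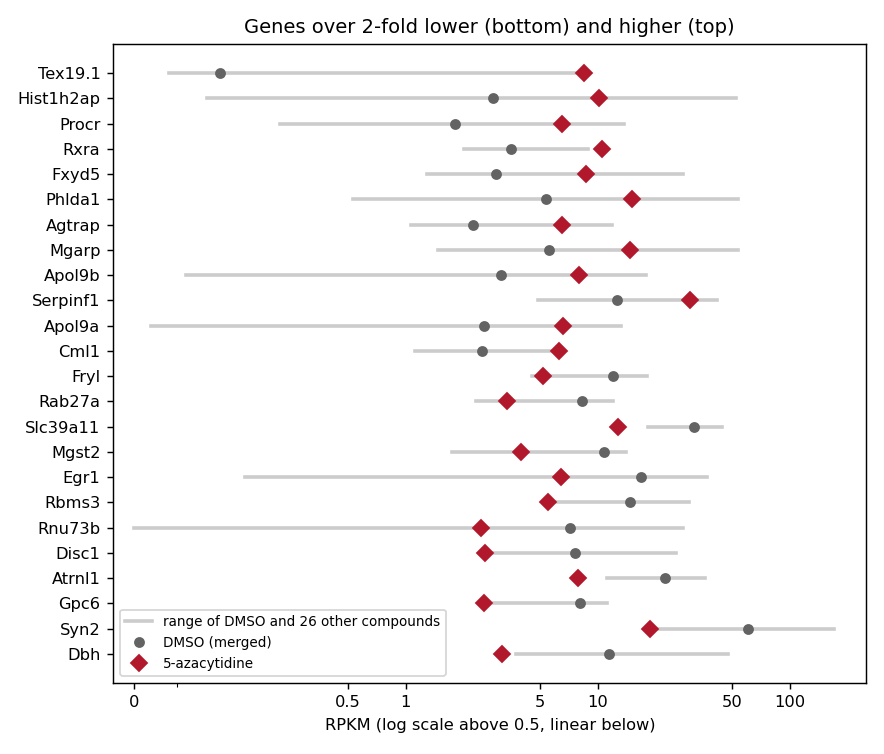
RPKM (x axis, logarithmic above 0.5 and linear below) of the 12 largest named rises (top) and falls (bottom), in merged DMSO (grey points) and 5-azacytidine (red diamonds). The grey line spans DMSO and the 26 other compounds. Treated cells lie at or beyond the end of that span for Tex19.1 (8.48), Rxra (10.47), Dbh (3.18) and Slc39a11 (12.75), and inside it for genes such as Phlda1 and Egr1.

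The largest falls included several genes of neurons. Dbh, dopamine beta-hydroxylase, which makes noradrenaline, was at 11.41 RPKM in DMSO and 3.18 RPKM in treated cells. Syn2, a synaptic vesicle synapsin, was at 60.34 and 18.69, Gpc6, a cell-surface glypican, at 8.06 and 2.55, and Atrnl1, an attractin-like protein, at 22.41 and 7.91. In these 4, and in Rbms3 (14.75 and 5.50) and Slc39a11 (31.67 and 12.75), treated cells were the lowest of 28 conditions. The next lowest condition was at 3.74 for Dbh, 19.87 for Syn2 and 2.89 for Gpc6. It was at 11.11 for Atrnl1, 6.00 for Rbms3 and 18.13 for Slc39a11. Syn2 was also low in 3 compounds compared below, MK-1775 (23.52), AW00693 (21.5) and T5985871 (19.87). Rbms3 was at 6.00, 13.03 and 6.41 in them. Disc1, a neurodevelopmental scaffold, was at 7.64 and 2.60, Fryl at 12.02 and 5.20, Rab27a, a GTPase of secretory granules, at 8.25 and 3.36, and Mgst2 at 10.71 and 4.0. Egr1, an immediate early transcription factor, was at 16.84 and 6.43. Rnu73b, a small nucleolar RNA, was at 7.19 and 2.46. Against the median of the other compounds Egr1, Mgst2 and Rab27a did not pass 2-fold.

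Genomic span separated the genes. The 26 lower protein-coding genes had a median span of 222 kb and 17 of them spanned over 100 kb, among them Gpc6 (1050 kb), Rbms3 (1060 kb), Atrnl1 (522 kb), Trappc9 (472 kb) and Slc39a11 (405 kb). The 31 higher ones had a median of 9.76 kb and 1 of them exceeded 100 kb. Over all 9100 protein-coding genes above 5 RPKM the median span was 24.7 kb, with 726 genes of 100 to 200 kb and 357 over 200 kb. The relation was seen across all 9100 protein-coding genes above 5 RPKM, and it was examined after the falls had been seen. The median log2 ratio was 0.03 for 2054 genes of up to 10 kb and for 1870 genes of 10 to 20 kb, 0.00 at 20 to 50 kb, -0.09 at 50 to 100 kb, -0.19 at 100 to 200 kb and -0.37 for 357 genes over 200 kb. In that last class 88.5% of genes lay below zero and 14 (3.92%) were past 2-fold lower, against 43.5% and 0.0974% in genes up to 10 kb. Within genes of low, middle and high DMSO level the median of genes over 200 kb was -0.37, -0.35 and -0.37. Genes share 1 library per condition and are not replicates, so these are descriptions of these libraries.

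Few other compounds of the series gave this direction. Taking the median of genes over 200 kb minus that of genes up to 10 kb, the 5-azacytidine value was -0.40, the second lowest of 27 compounds. T5985871 gave -0.46 (the name follows the well list of the study, whose text pairs it with the identifier of another compound), the WEE1 kinase inhibitor MK-1775 gave -0.22 and AW00693 gave -0.02, and the remaining values reached 0.78. All compounds were set against the same DMSO value.

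**Figure D5:**
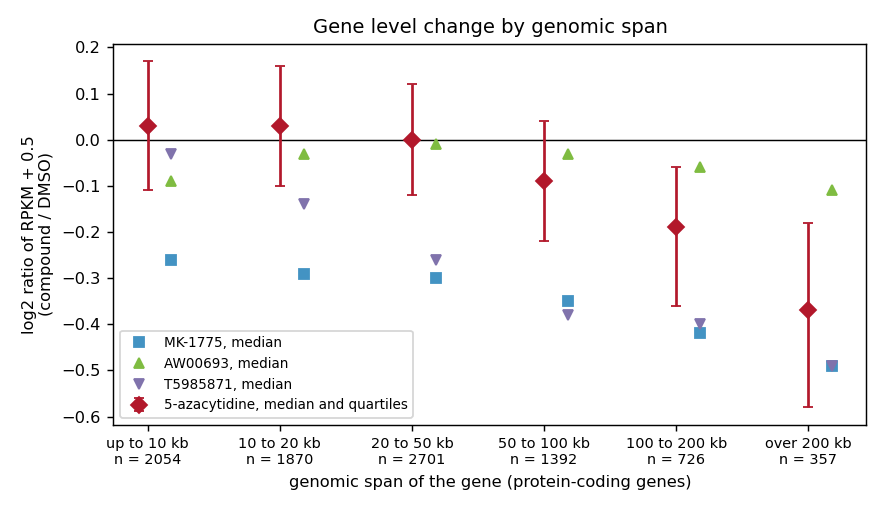
Log2 ratio of RPKM + 0.5, compound over DMSO (y axis), by genomic span of protein-coding genes (x axis, with the number of genes). Red diamonds and bars are the median and quartiles for 5-azacytidine, and the other symbols are the medians of MK-1775, AW00693 and T5985871. The 5-azacytidine median goes from 0.03 in the shortest genes to -0.37 in the longest, and its upper quartile is below zero from 100 kb on.

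The share of decreased microexons was highest in the longest genes, a difference that was not tested. With a DMSO PSI of 10 to 90, 12 of 26 microexons (46.2%) in genes over 200 kb were decreased, against 20% to 27.8% in the 4 classes between 10 and 200 kb, and none of 5 below 10 kb (5 to 40 microexons per class). The mean difference did not follow span, at -5.12 PSI up to 10 kb, -7.69 at 10 to 20 kb, -4.19 at 20 to 50 kb, -5.50 at 50 to 100 kb, -3.55 at 100 to 200 kb and -8.60 over 200 kb. For cassette exons of the same window the decreased share was 12.7% in genes up to 10 kb and 10.8% over 200 kb. Long genes were also lower in level, and the part of either in the other was not tested.

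Few neuronal genes of the sympathetic lineage passed 2-fold, in both directions. Of 40 listed genes 31 were above 5 RPKM, 23 of them lay below zero and the median log2 ratio was -0.39, against 53.8% below zero and a median of -0.02 over all protein-coding genes above 5 RPKM, with 3 past 2-fold lower and 2 higher. Besides Dbh, the lower ones were Ret, the receptor of GDNF, at 131.73 and 62.48 RPKM, and Syt1, the synaptic calcium sensor, at 40.22 and 19.22. The higher ones were Gata2, a sympathetic transcription factor, at 47.92 and 104.25, and Ddc, aromatic amino acid decarboxylase, at 5.24 and 12.03. Against the median of the other compounds neither passed 2-fold, and Ddc (median 12.42) was level with it. Phox2a (78.92 and 41.31), Chgb (325.06 and 183.74) and Ncam1 (63.38 and 35.04) stayed within 2-fold.

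None of 32 genes of sterol and fatty acid synthesis above 5 RPKM passed 2-fold. Of them 30 lay below zero, where 53.8% of all protein-coding genes did, and the median log2 ratio was -0.28. Mvk, mevalonate kinase, was at 17.25 and 10.85 RPKM and Elovl6, a fatty acid elongase, at 25.96 and 16.04. Insig2 (18.87 and 21.44) and Ebp (24.78 and 26.80) were the exceptions.

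Stress and growth lists held 1 gene past 2-fold, and their sign counts are given beside the 46.1% of all protein-coding genes above 5 RPKM that lay above zero. Of 37 genes of the integrated stress response, 29 lay above zero with a median of 0.16, and Nupr1, a stress-induced chromatin protein, passed 2-fold at 77.04 and 157.58 RPKM, though not against the median of the other compounds (86.86). Ddit3, the transcription factor CHOP, was at 26.69 and 53.67 and just missed the limit (log2 0.99). Among 24 p53 targets 17 lay above zero (median 0.16), with Gdf15 at 5.43 and 10.96, Phlda3 at 6.56 and 10.81 and Cdkn1a, the p21 inhibitor, at 11.55 and 18.28, none past 2-fold. Ribosome biogenesis had 42 of 52 genes above zero (median 0.14), and G2/M genes 26 of 35 (median 0.10), with Cdc20 (51.88 and 75.13) and Ube2c (519.88 and 711.58) at their highest of 28 conditions. G1/S genes had 30 of 39 below zero (median -0.09), although Cdt1, a replication licensing factor, lay above zero and was at 76.54 and 134.82.

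Interferon genes, which 5-azacytidine can induce in other cells through transcripts of endogenous retroviruses, did not pass 2-fold. Of 58 listed genes 18 were above 5 RPKM, 12 of them above zero, with a median of 0.17. The largest ratios among the 18 were those of Psmb8 (2.67 and 5.12 RPKM), an immunoproteasome subunit, and Bst2 (6.99 and 11.82), a viral restriction factor. Ifit1 (0 and 0.04), Oas2 (0.01 and 0) and Ifnb1 (0 and 0) remained near zero, and Isg15 was at 0.61 and 1.36. Imprinted genes, whose single active copy depends on methylation, showed 1 gene past 2-fold in each direction among 21, and a median of -0.16. The genes were Ddc and Trappc9 (11.57 and 5.27). Trappc9 was at its lowest of 28 conditions, level with T5985871 at 5.28. Against the median of the 26 other compounds neither passed 2-fold, with log2 ratios of -0.04 for Ddc and -0.82 for Trappc9. H19 was at 0.04 and 0.19, Igf2 at 0 and 0.04 and Mest at 337.85 and 455.80. Interferon and imprinted genes at or below 5 RPKM in both conditions were not counted as a set. The germline list was, so the lists cannot be compared at that level.

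Genes of histone modification had a median level ratio of zero, with none of 28 past 2-fold. Of their 310 cassette exons 5 were decreased and none increased, where 0.978% and 0.376% of all cassette exons were called. Counts this small cannot be told from those shares. The decreased exons lay in Ehmt2 (31.9, 31.4 and 31 against 21.4), Hdac4 (79.5, 79.7 and 94.1 against 64.7), Hdac9 (93.5, 92.1 and 100 against 79.7), Hdac10 (92.8, 98.9 and 100 against 81.1) and Suz12, a subunit of Polycomb repressive complex 2 (84.3, 77.5 and 84.6 against 71.3). In the last 4 the treated library was the lowest of those read. In the SR and hnRNP list 1 of 224 cassette exons was decreased, in Hnrnph1 (50.3, 33.3 and 43.5 against 28.3). Among factors of nonsense-mediated decay it was 1 of 152, in Upf3b (25.5, 25.9 and 26.2 against 13.6). Neither share was above the 0.978% of all cassette exons.

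The remaining lists had medians between -0.07 and 0.14. RNA cytosine methylation had a median of 0.07 over 10 genes, pyrimidine metabolism 0.03 over 29, DNA repair -0.07 over 40, ER chaperones -0.04 over 21, heat shock 0.03 over 14, oxidative and metal response 0.14 over 22, apoptosis -0.07 over 17 and decay factors 0.05 over 16, with no gene past 2-fold in any of them. Slc29a1, the nucleoside transporter ENT1 that carries the compound into cells, was at 92.62 and 122.47 RPKM, its highest of 28 conditions. Among 26 immediate early and MAPK genes (median 0.03) Egr1 was the 1 past 2-fold.

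Values of 3 other compounds for which decreased microexons outnumbered increased ones are set beside these, all against the same DMSO libraries. MK-1775 decreased 10.3% of microexons, AW00693 21.3% and T5985871 21.7%. Cassette exons were decreased in 2.59%, 1.23% and 2.52%, and introns increased in 0.495%, 0.352% and 1.09%. Genes past 2-fold were 228 higher and 261 lower for MK-1775, 246 and 250 for AW00693, and 596 and 828 for T5985871. Doses were not matched between the compounds, and no test of a difference is available. In the order MK-1775, AW00693 and T5985871, the shorter Ehmt2 exon was at 0.0 in all 3, and the Dazl exon at 72.2, 14.9 and 39.7. Srrm4 was at 7.71, 5.93 and 3.34 RPKM, Srrm3 at 16.73, 7.39 and 6.56, and Rbm38 at 36.29, 159.63 and 271.03. Tex19.1 was at 0.49, 0.45 and 0.57.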

How the data were processed

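RNA-seq libraries (TruSeq v2, polyA RNA) of N2A cells were used as processed by the authors. PSI values, with the percent of inclusion and quality scores holding read counts per event, were deposited by the authors from vast-tools on mm9. The RPKM values were deposited by the authors as 1 merged value per condition, from Salmon (0.10.2 in the submitters' processing notes, a later version in the methods) on GENCODE transcripts and edgeR. The authors' own fold changes and p-values were not used.

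Events were kept when the treated library and at least 2 of the 3 DMSO libraries passed the study's coverage and balance filters (introns at least 15 reads). The deposited inclusion and exclusion read counts, which need not be whole since vast-tools corrects them for mappability, were used as estimated counts in Beta posteriors integrated on a grid of 400 cells. DMSO means used the libraries that passed. Gene spans and biotypes came from GENCODE vM21 (GRCm38) by gene ID without version, and no coordinate was carried between mm9 and GRCm38. NumPy 2.4.6, SciPy 1.17.1 and pandas 2.3.3 were used. The rule was tested on simulated reads.

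Named events were those with the largest gap to the nearest DMSO library, read in all 3: 8 microexons, 8 cassette exons, 5 introns and 3 sites of each kind per direction. Added to them were exons of intermediate DMSO PSI in the genes whose exons the study assayed by RT-PCR. Named genes were the 12 largest ratios per direction without predicted genes, pseudogenes or small RNAs by name, and up to 3 per list. The members and the 25 gene lists were chosen with earlier results of these data known. Alternatives were another PSI limit, the distance to the nearest DMSO library, coverage, balance, each DMSO library left out, pseudocounts, RPKM limits, centring and, added after seeing the data, the median of the other compounds as reference. Some single-gene results are not reported here.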

Additional observations from a re-analysis of the deposited data

How the results depend on the processing

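The counts rest mainly on the limits chosen. At 15 PSI in place of 10, 3 microexons were increased and 17 decreased, as were 74 and 213 cassette exons, 210 and 59 introns, 101 and 103 alternative 3′ sites and 112 and 111 alternative 5′ sites. Requiring 10 PSI beyond the nearest DMSO library left 2 increased microexons, 80 increased and 329 decreased cassette exons, 66 decreased introns, 148 and 150 alternative 3′ sites and 127 and 130 alternative 5′ sites. Stricter coverage gave 243 and 55 introns, 164 and 161 3′ sites and 162 and 164 5′ sites, and dropping the balance filter 9 increased microexons and 723 and 240 introns. With more than 1 RPKM in place of 5, 311 genes were higher and 219 lower, and with no limit 429 and 363. The other alternatives stayed within 1.5 times of each count.

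Without 1 DMSO library, increased microexons numbered 5 to 6 and decreased ones 42 to 50. The ranges were 191 to 222 and 511 to 557 for cassette exons, 287 to 405 and 100 to 108 for introns, 213 to 268 and 209 to 272 for 3′ sites, and 197 to 246 and 193 to 249 for 5′ sites. Of the 45 decreased microexons, 39 to 42 remained called. The intron of 2610020H08Rik, read from 17 reads, was no longer called without DMSO replicate B or C. Among named genes, 1 turned direction: Ddc had a log2 ratio of -0.04 against the median of the 26 other compounds, an alternative chosen after seeing the data. No paired analysis was possible because there was 1 treated library. Read sampling and a single treated culture limit every value, and RPKM was given without counts, so the depth behind a gene is unknown.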
